A study of Homo sapiens with 12 samples.

Results

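The genes described here belong to the feedback of ERK signalling, with 10 members chosen by name, namely 5 dual-specificity phosphatases (DUSP1, DUSP4, DUSP5, DUSP6 and DUSP10), the Sprouty proteins SPRY2 and SPRY4, the Sprouty-related proteins SPRED1 and SPRED2, and the transcription factor ETV5. ETV5, whose transcript follows ERK activity, is counted with the feedback genes below but is not one of the inhibitors. Each member was found once among the 12451 entries used, and all 10 passed the filter on low values (1 RPKM or more in 3 or more libraries). RNA was from MDA-MB-231-ERβ cells, a triple negative breast cancer line engineered to make full length ERβ when doxycycline (dox) is present. All cells were plated with dox in charcoal-stripped serum, for 5 days with vehicle or with 1 nM 17β-estradiol (E2), the ligand of ERβ. For the final 3 h, 20 ng/ml TNFα was added to some dishes, which gave 4 groups of 3 libraries (vehicle, TNFα, E2 and E2+ TNFα). In the E2+ TNFα group the labels leave dox unnamed, and it is taken from the study's methods, and cells without dox were not analysed here. Plating was in triplicate in one line, so p values measure the spread between dishes of the same engineered cells.

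ERK is the last kinase of the RAS, RAF and MEK cascade, and growth factor receptors switch it on. Active ERK enters the nucleus and raises transcription of the genes that shut it down again. DUSP proteins remove phosphate from MAP kinases, while Sprouty and SPRED proteins act further up, at the steps from receptors through RAS to RAF. Transcripts of DUSP6, SPRY4 and the ETV4 and ETV5 factors are therefore widely used as a readout of ERK output. DUSP transcripts are also induced by other inputs, among them p38, JNK and NFκB, which TNFα activates.

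Promoter windows show which sequences stand at the starts of these genes. RefSeq windows (GRCh38.p14, 250 bases before to 50 after each start) were found for DUSP1, DUSP6, DUSP10, SPRY2, SPRY4, SPRED1 and SPRED2, 11 windows in all. They were searched on both strands for an ETS core (CCGGAA), a CRE (TGACGTCA), the short CRE TGACG that a CRE also contains, an AP-1 site (TGANTCA), a full ERE, the short ERE AGGTCA that can overlap a full one, a TATA box (TATAAA), an NFκB site and a serum response element. Among all 35116 windows, 17.2% held an ETS core, 1.85% a CRE, 24.6% a short CRE, 7.71% an AP-1 site, 0.057% a full ERE, 13.8% a short ERE, 11.5% a TATA box, 5.91% an NFκB site and 1.29% a serum response element. The window of DUSP1 is printed because it was the one window of the 11 with a full CRE, and in it a CRE and 2 more short CRE stood upstream of a TATA box. Short stretches of SPRY2, SPRY4 and SPRED2 are printed for their ETS core, short ERE and short CRE, and AP-1 site. The SPRED2 stretch is from the window of a start inside the gene, and the SPRED2 window at the gene's outer end held no AP-1 site. Not printed are a short CRE and a short ERE in a window of DUSP10, a short CRE in a window of SPRY2 and in one of SPRED2, and a TATA box and another AP-1 site in the SPRED2 window shown. None of the 11 windows held an NFκB site, a full ERE or a serum response element. The windows of DUSP6 and SPRED1 held none of these letters, which says nothing of the factors that bind there or elsewhere. All stretches are on the minus strand and are written in its direction, with the motifs in capitals.
DUSP1, bases -250 to -6 from the start, chr5:172771201-172771445: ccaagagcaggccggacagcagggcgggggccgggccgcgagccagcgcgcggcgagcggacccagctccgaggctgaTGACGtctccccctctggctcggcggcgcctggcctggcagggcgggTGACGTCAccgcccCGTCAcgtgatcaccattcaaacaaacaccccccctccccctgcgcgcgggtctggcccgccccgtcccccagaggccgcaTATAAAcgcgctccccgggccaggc
SPRY2, bases -154 to -125, chr13:80341251-80341280: tccctgcctcctCCGGAAaggcgagggcgc
SPRY4, bases -80 to -51, chr5:142324298-142324327: tcttcggagccgTGACGgactgaattccct
SPRY4, bases 21 to 50, chr5:142324198-142324227: tggcgaggcggttcctcgccgtcTGACCTt
SPRED2, bases -17 to 13, chr2:65366766-65366795: taaccctcggaTGACTCAtccggtacaatg

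Library depth ran from 7.65 to 39.9 M assigned reads (M, mega), and the E2 libraries were the shallowest (7.65 to 15.8 M). The first principal component of log2 CPM (CPM, counts per M reads after TMM normalization) held 66.5% of the variance and set the 3 vehicle libraries apart from the 9 others. Values relative to vehicle also followed the GC content of a gene's exons, with a Spearman rho across genes of 0.706 for TNFα, 0.655 for E2 and 0.665 for E2+ TNFα. The labels give no batch, so the vehicle condition and a batch of vehicle libraries cannot be told apart. The comparisons without vehicle libraries, given first, had weaker trends with GC content, with a rho of -0.21 for E2+ TNFα relative to TNFα and -0.331 relative to E2. For the interaction, which includes vehicle, rho was -0.689. VIM and CD44, which mark mesenchymal cells, were at 324 to 519.5 and 97.7 to 228 RPKM, EPCAM was at 3.81 to 9.12 RPKM, and CDH1 was under 1 RPKM in vehicle and TNFα libraries and at 5.96 to 9.88 RPKM in those with E2. ESR2, which encodes ERβ, was at 473 ± 14.9 CPM (SD, n = 3) with vehicle, 306 ± 14.7 with E2, 255 ± 26.7 with TNFα and 448 ± 53.2 with E2+ TNFα, so that its E2+ TNFα libraries lay above all TNFα libraries, and its part in the members' values was not tested. ERBB2, listed beforehand as low in this line, was at 15.6 to 22.5 RPKM, above EPCAM and CDH1 in every library. ESR1 and PGR were not analysed here.

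The first question was what E2 changed in cells that had received TNFα. In E2+ TNFα relative to TNFα, DUSP4 was induced and DUSP5 and DUSP6 were repressed past the study's thresholds (a log2 fold change of 1.5 or more in size, and an edgeR p under 0.05 that came to 0.1 or less once adjusted, here called the p threshold). One induced member among 10 stands beside 3.55% of all 11303 genes tested, and 2 repressed members beside 2.01%. At the p threshold alone, 3 members were higher (DUSP4, SPRY4 and SPRED1) and 5 lower (DUSP5, DUSP6, SPRY2, SPRED2 and ETV5), beside 45.3% of all genes. The median of the 10 members was -0.28 on the log2 scale and that of all genes 0.04. The feedback genes thus did not move as 1 group, and the phosphatases held both the largest rise and the largest fall of the 10. In bulk RNA, fewer cells with a transcript and less of it per cell cannot be told apart.

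**Figure D1:**
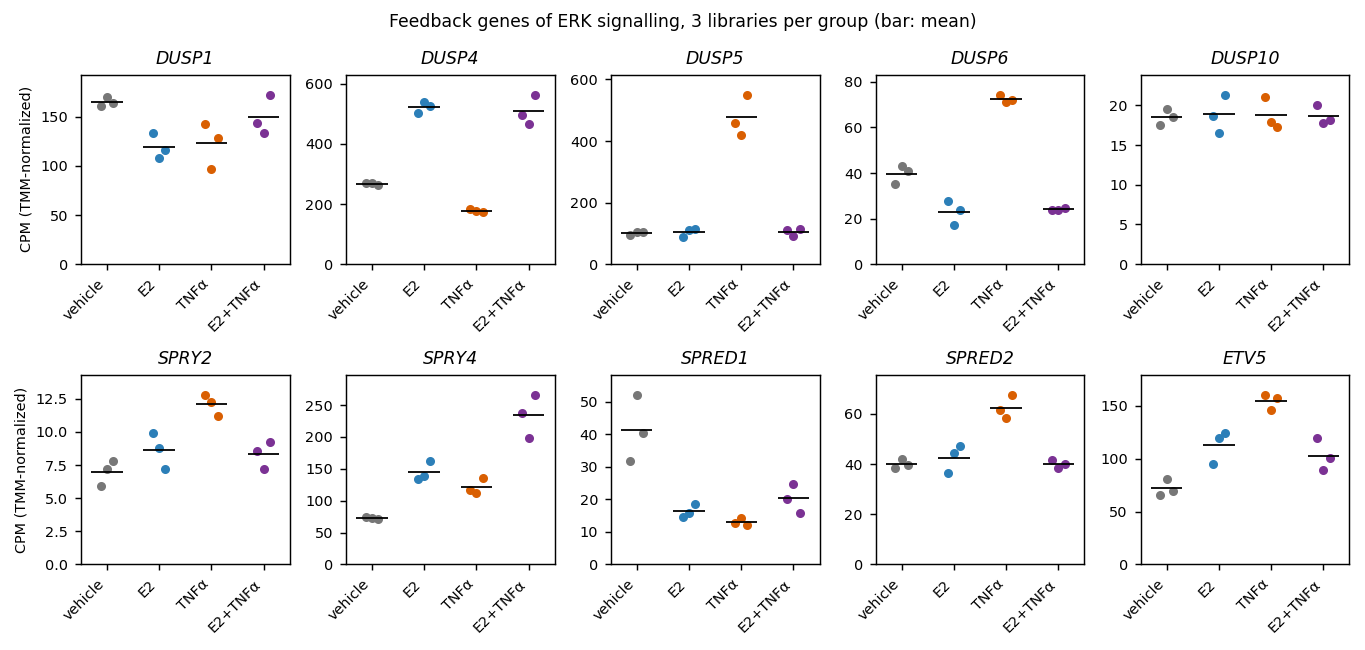
Normalized read counts (CPM, linear axis from 0, a separate scale for each gene) of the 10 feedback genes in 4 groups of 3 libraries; points are libraries and bars are group means. The TNFα libraries stand above all 9 others for DUSP5, DUSP6, SPRY2, SPRED2 and ETV5 and below all 9 for DUSP4, and SPRY4 is highest in the 3 E2+ TNFα libraries.

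DUSP5 is a nuclear phosphatase that acts on ERK and anchors it in the nucleus (hg38, chr10:110497867-110511544). Its CPM was 94.8, 103 and 103 with vehicle, 87.8, 110.2 and 113 with E2, 460.0, 421 and 550.1 with TNFα and 111, 91.3 and 113 with E2+ TNFα. The 3 TNFα libraries lay far above the 9 others, which overlapped with each other. In E2+ TNFα relative to TNFα, DUSP5 was 4.54-fold lower, a log2 fold change of -2.18 ± 0.14 (SE, adjusted p = 1.2e-08). Relative to E2 alone, E2+ TNFα differed by 0.02, with a 95% interval of -0.27 to 0.31 (adjusted p = 0.95). Sequences similar to its exons lie on chromosomes 1 (identity 86.3%) and 3 (84.9%), under the 90% taken as a copy, and no member had a copy.

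DUSP6 is the cytoplasmic counterpart of DUSP5, specific for ERK and among the best known transcriptional targets of ERK (hg38, chr12:89347825-89352859). It was at 35.1, 42.96 and 40.7 CPM with vehicle, 27.6, 17.4 and 23.8 with E2, 74.3, 71.3 and 72.0 with TNFα and 23.9, 23.8 and 24.8 with E2+ TNFα. No group overlapped with the TNFα libraries, while E2 and E2+ TNFα libraries did overlap and both lay below vehicle. DUSP6 was 3.00-fold lower in E2+ TNFα than in TNFα, at a log2 fold change of -1.59 ± 0.15 (SE, adjusted p = 7.4e-07). The same value relative to E2 was 0.06, with a 95% interval of -0.26 to 0.38 (adjusted p = 0.87).

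DUSP4, a nuclear phosphatase that acts on ERK, JNK and p38, ran the other way (hg38, chr8:29333062-29350750). Its CPM was 269, 269 and 262 with vehicle, 501, 539 and 527 with E2, 184, 175 and 172 with TNFα and 496, 465 and 563 with E2+ TNFα. Both groups with E2 lay above vehicle, and the TNFα libraries lay below it. DUSP4 was 2.87-fold higher in E2+ TNFα than in TNFα, a log2 fold change of 1.52 ± 0.10 (SE, adjusted p = 2.5e-08). This value is close to the threshold of 1.5. It was between 1.44 and 1.58 as each of the 12 libraries was left out, and under 1.5 without each E2 library, TNFα replicate 2 or 3, or E2+ TNFα replicate 3. With DESeq2 in place of edgeR it was 1.49, and with the trends of each library with GC content and gene length removed 1.48. Relative to E2, the value in E2+ TNFα was -0.04, with a 95% interval of -0.26 to 0.18.

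The other phosphatases differed less. DUSP1, a nuclear phosphatase of p38, JNK and ERK that stress and mitogens induce at once and whose printed window held the CRE, was at 161, 170.0 and 164 CPM with vehicle, 134, 108 and 116 with E2, 143, 96.9 and 129 with TNFα and 144, 133 and 172 with E2+ TNFα (hg38, chr5:172768090-172771200). The 3 treated groups overlapped, and its log2 fold change in E2+ TNFα was 0.29 relative to TNFα (95% interval -0.02 to 0.59, adjusted p = 0.14) and 0.32 relative to E2 (0.01 to 0.64, adjusted p = 0.24). DUSP10, which prefers p38 and JNK to ERK, stayed between 16.6 and 21.3 CPM over the 12 libraries, and its groups all overlapped (hg38, chr1:221701420-221742176). Its intervals were -0.32 to 0.30 relative to TNFα and -0.34 to 0.29 relative to E2, so that a change past the size threshold lay outside both.

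**Figure D2:**
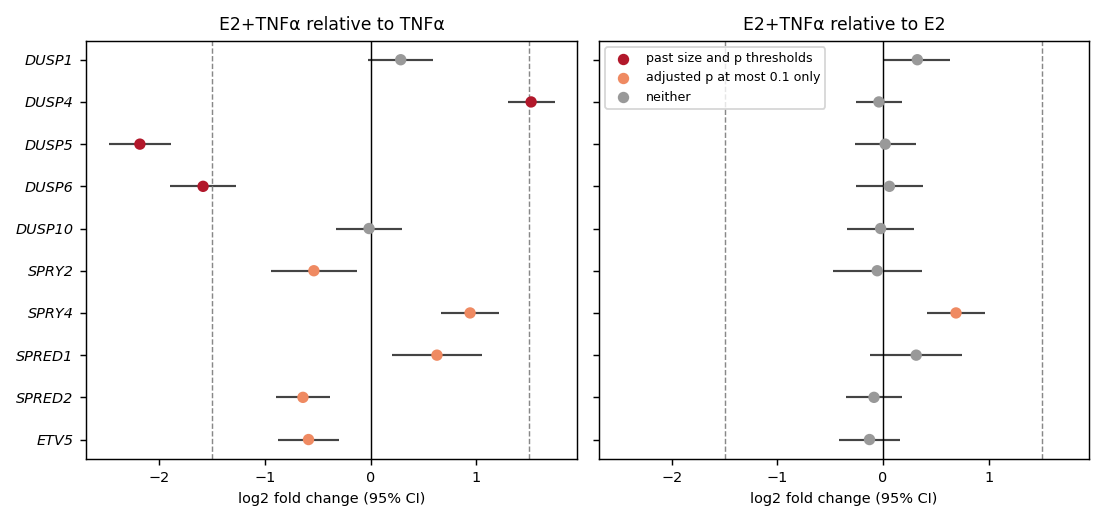
Log2 fold changes of the 10 feedback genes in E2+ TNFα relative to TNFα (left) and to E2 (right), from the edgeR fit; points are estimates, horizontal lines are 95% intervals and dashed lines the size threshold of 1.5. On the left DUSP5 and DUSP6 lie to the left of the threshold and DUSP4 just past it on the right, and in the right panel SPRY4 is the one gene past the p threshold.

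Of the Sprouty proteins, which block the steps from receptors to RAS and RAF, SPRY4 was the higher per length, at 10.3 ± 0.244 against 2.15 ± 0.297 RPKM (SD, n = 3) in vehicle (hg38, chr5:142310427-142325055). SPRY4 was at 74.4, 72.1 and 71.1 CPM with vehicle, 133, 139 and 162 with E2, 117, 112 and 136 with TNFα and 237, 198 and 266 with E2+ TNFα. Its 3 E2+ TNFα libraries lay above the 9 others and its vehicle libraries below them, while E2 and TNFα libraries overlapped. SPRY4 was higher in E2+ TNFα than in TNFα by 0.94 ± 0.13 (SE, adjusted p = 3.7e-05) and than in E2 by 0.69 ± 0.13 (SE, adjusted p = 0.013), and both changes were under the size threshold.

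SPRY2 had few reads, 5.90, 7.24 and 7.77 CPM with vehicle, 9.92, 8.77 and 7.23 with E2, 12.8, 12.3 and 11.2 with TNFα and 8.59, 7.17 and 9.23 with E2+ TNFα (hg38, chr13:80335976-80340951). The TNFα libraries lay above the 9 others, which overlapped. The log2 fold change in E2+ TNFα relative to TNFα was -0.54 ± 0.19 (SE, adjusted p = 0.038), and that relative to E2 was -0.06 (95% interval -0.48 to 0.37).

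SPRED proteins bring neurofibromin, an inactivator of RAS, to the membrane. SPRED2 was at 38.3, 42.2 and 39.6 CPM with vehicle, 36.4, 44.3 and 47.0 with E2, 61.3, 58.4 and 67.5 with TNFα and 41.5, 38.4 and 40.2 with E2+ TNFα (hg38, chr2:65307435-65432637). As with DUSP5, only the TNFα libraries stood apart, and E2+ TNFα was lower than TNFα, at a log2 fold change of -0.64 ± 0.12 (SE, adjusted p = 0.00078). SPRED1 was at 31.8, 52.1 and 40.5 CPM with vehicle, 14.5, 15.8 and 18.7 with E2, 12.7, 14.4 and 12.2 with TNFα and 20.1, 24.8 and 16.0 with E2+ TNFα (hg38, chr15:38252087-38357249). All 9 treated libraries lay below the vehicle libraries, and E2+ TNFα lay above TNFα by 0.63 ± 0.20 (SE, adjusted p = 0.022), or 0.40 with the trends of each library with GC content and length removed.

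ETV5 is a PEA3 factor whose transcript follows ERK activity and which binds ETS sites (hg38, chr3:186046317-186109112). Its CPM was 65.9, 80.8 and 69.5 with vehicle, 94.8, 119 and 124 with E2, 160.2, 146 and 158 with TNFα and 119, 89.3 and 101 with E2+ TNFα. The TNFα libraries were again the highest, and here both groups with E2 lay above vehicle too. The log2 fold change in E2+ TNFα relative to TNFα was -0.59 ± 0.14 (SE, adjusted p = 0.0035), and relative to E2 it was -0.13 (95% interval -0.42 to 0.16).

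The next question was what TNFα changed in cells that had received E2. In E2+ TNFα relative to E2, no member was past the thresholds in edgeR or DESeq2, beside 0.389% of all genes induced and 0.0177% repressed. SPRY4 was the 1 member of 10 past the p threshold alone, and 6.00% of all genes were. The values of the other 9 members lay between -0.13 and 0.32. At an unadjusted p under 0.05, 2 members passed, SPRY4 and DUSP1. The share of all genes at that unadjusted p was not counted, here or in the comparisons that follow. With GC content and length trends removed, DUSP1 was also past the p threshold (0.49, adjusted p = 0.016).

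Relative to vehicle, the 3 treated groups share the same vehicle libraries, so their values are given side by side and were not compared with each other. In TNFα-treated cells DUSP5 was induced (6.64% of all genes were) and SPRED1 repressed (20.0% were), and 9 of 10 members were past the p threshold (81.9%). In E2-treated cells no member was induced (9.87% of all genes were) or repressed (20.6%) past the thresholds, and 6 were past the p threshold (81.8%). At an unadjusted p under 0.05 the number was also 6 (share of all genes not counted), and DESeq2 also called 0. In E2+ TNFα-treated cells SPRY4 was induced (7.52%), none was repressed (17.6%), and 5 were past the p threshold (80.6%). Where so large a share of all genes passes, a count of members says little about the members. With an unwanted factor from 20 housekeeping genes in the fit, 4 members were past the p threshold in TNFα (DUSP4, DUSP5, DUSP6 and ETV5), 1 in E2 (DUSP4) and 2 in E2+ TNFα (DUSP4 and SPRY4). With GC content and length trends removed, 10, 8 and 8 were. The share of all genes past the p threshold was not counted in these fits, so these counts cannot be set beside it. The median log2 fold change of the members was 0.69 for TNFα, 0.07 for E2 and 0.04 for E2+ TNFα, and that of all genes 0.01, -0.02 and -0.03.

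DUSP5 was 4.76-fold higher in TNFα than in vehicle, at 2.25 ± 0.14 (SE, adjusted p = 7.1e-09), while its values were 0.05 in E2 (adjusted p = 0.76) and 0.07 in E2+ TNFα (adjusted p = 0.66). The value for TNFα was past the thresholds with the unwanted factor (1.72) and with GC content and length trends removed (1.58). That factor itself set vehicle libraries (0.41 to 0.50) apart from the 9 others (-0.43 to 0.05). With the trends removed, the values for E2 and E2+ TNFα were -0.77 and -0.61, under vehicle. DUSP6 differed from vehicle by 0.87 in TNFα, -0.77 in E2 and -0.71 in E2+ TNFα, all past the p threshold and none past the size threshold. These values were, with the unwanted factor, 1.38, -0.14 (adjusted p = 0.81) and -0.18 (adjusted p = 0.70). DUSP4 was at -0.59, 0.97 and 0.93 in the same order, and so ran opposite to DUSP6 in each.

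DUSP1 was at -0.42 in TNFα, -0.46 in E2 and -0.14 in E2+ TNFα, the last with an adjusted p of 0.39. With the trends removed, DUSP1 was at -1.06, -1.27 and -0.77, and with the unwanted factor it was past the p threshold in none of the 3. ETV5 was higher than vehicle in all 3, by 1.10, 0.64 and 0.52. With the unwanted factor, ETV5 was at 0.71 in TNFα, 0.14 in E2 (adjusted p = 0.79) and 0.10 in E2+ TNFα (adjusted p = 0.82). SPRY2 and SPRED2 were higher in TNFα, by 0.79 and 0.64, and for neither gene did E2 or E2+ TNFα pass the p threshold. In TNFα both missed the p threshold with the unwanted factor (0.64 and 0.40). Their 95% intervals in E2+ TNFα were -0.15 to 0.66 for SPRY2 and -0.26 to 0.26 for SPRED2. DUSP10 was at 0.02 in TNFα, 0.03 in E2 and 0.01 in E2+ TNFα, and passed the p threshold in none, nor with the unwanted factor. With the trends removed, DUSP10 was at 0.52, 0.46 and 0.41, each past the p threshold. The 889 genes within 1 point of its GC content had medians of -0.59, -0.60 and -0.54.

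SPRY4 was higher than vehicle past the p threshold in all 3 treated groups. Its values were 0.75 in TNFα, 1.00 in E2 and 1.69 ± 0.13 (SE, adjusted p = 3.7e-08) in E2+ TNFα, the last being the one past the size threshold. SPRY4 was at 0.34 with the unwanted factor in TNFα (adjusted p = 0.33) and 0.48 in E2 (adjusted p = 0.25). The call in E2+ TNFα was lost with the unwanted factor (1.26), with library size only in place of TMM (1.44) and with the trends removed (1.497, just under the threshold).

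SPRED1 was 3.16-fold lower in TNFα than in vehicle, at -1.66 ± 0.20 (SE, adjusted p = 2.6e-06), and was at -1.34 in E2 and -1.03 in E2+ TNFα. It had the lowest exon GC content of the members (40.2%), and 12.8% of all genes tested had a lower one. The 835 genes within 1 point of its GC content had medians of -1.76 in TNFα, -1.74 in E2 and -1.53 in E2+ TNFα, so that SPRED1 lay above the middle of genes of like composition. Its values with the unwanted factor were -0.84, -0.30 and -0.19, none past the p threshold. With GC content and length trends removed, its values turned positive, to 0.34, 0.85 and 0.74. Without vehicle replicate 2 the value for TNFα was -1.47, under the threshold, and without vehicle replicate 1 that for E2 was -1.54, past it. For DUSP5 the like genes had a median of 0.57 in TNFα, against its own 2.25.

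**Figure D3:**
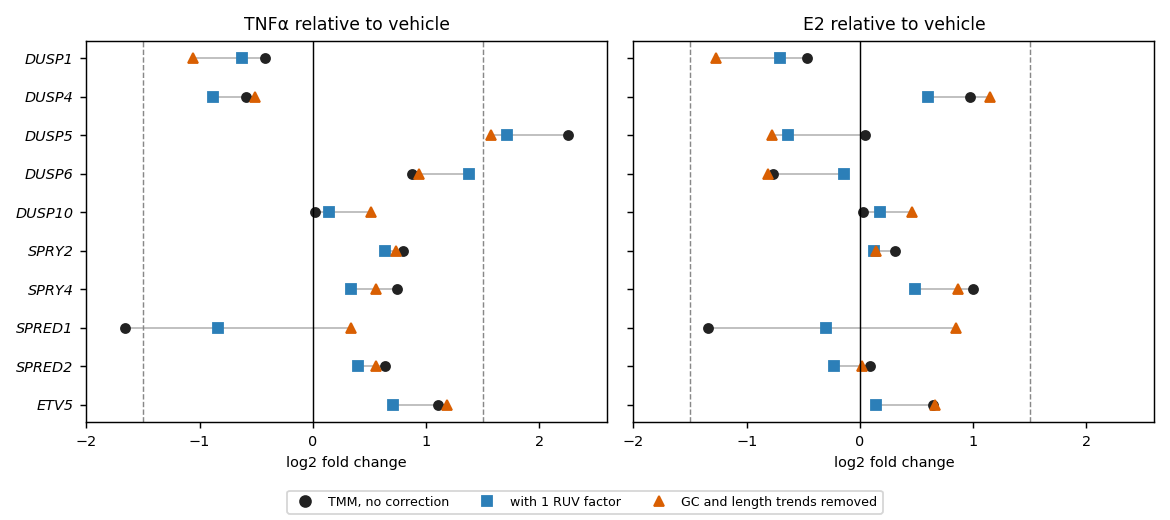
Log2 fold changes of the 10 feedback genes in TNFα (left) and E2 (right) relative to vehicle under 3 settings, namely TMM without correction (circles), with 1 unwanted factor estimated from housekeeping genes (squares) and with each library's trends with GC content and length removed (triangles); dashed lines mark the size threshold of 1.5. DUSP5 stays past 1.5 in TNFα under all 3, while SPRED1 moves from -1.66 to 0.34 in TNFα and from -1.34 to 0.85 in E2.

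The interaction asks whether the effect of TNFα differed with and without E2. It was past the thresholds in 1 member upwards (SPRED1, beside 22.5% of all genes), 1 downwards (DUSP5, beside 9.29%), and 8 were past the p threshold (76.6%). DUSP5 had an interaction of -2.23 ± 0.19 (SE, adjusted p = 4e-07), as TNFα moved it by 2.25 without E2 and by 0.02 with E2. With the unwanted factor the interaction was -1.58, past the thresholds, and with the trends removed it was -1.41, under the size threshold. SPRED1 had an interaction of 1.97 ± 0.28 (SE, adjusted p = 2.5e-05), beside a median of 2.03 for genes of like GC content, and -0.45 with the trends removed. ETV5 (-1.23), SPRY2 (-0.85), DUSP6 (-0.81) and SPRED2 (-0.73) also had a negative interaction past the p threshold, and DUSP1 (0.75) and DUSP4 (0.55) a positive one. ETV5, SPRY2, SPRED2 and SPRED1 missed the p threshold in the interaction with the unwanted factor. With the trends removed, the value of DUSP1 was 1.56, past the size threshold, and that of DUSP10 went from -0.05 to -0.57 (adjusted p = 0.011). SPRY4 was at -0.06 (95% interval -0.44 to 0.33). Its change in E2+ TNFα relative to vehicle (1.69) was thus close to its change with E2 (1.00) and its change with TNFα (0.75) added up.

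The 5 phosphatases can be set against each other per length. Their summed RPKM was 169 ± 5.41 (SD, n = 3) with vehicle, 171 ± 3.65 with E2, 297 ± 33.6 with TNFα and 185 ± 19.6 with E2+ TNFα. In vehicle DUSP1 was the largest with 48.3% ± 0.44 of the sum, ahead of DUSP5 (23.5% ± 0.57), DUSP4 (17.4% ± 0.62), DUSP6 (6.90% ± 0.49) and DUSP10 (3.88% ± 0.093). In TNFα libraries DUSP5 alone made up 63.5% ± 3.12, and DUSP4 6.64% ± 0.81. In E2+ TNFα libraries the makeup was nearer to that with E2 alone than to that with TNFα alone. DUSP5 held 22.4% ± 1.26 and DUSP4 30.3% ± 0.52, beside 24.0% ± 3.17 and 33.7% ± 1.62 with E2. DUSP1 held 39.9% ± 1.40, beside 34.5% ± 3.66 with E2. The DUSP4 shares with E2 and with E2+ TNFα did not overlap. DUSP1 and DUSP5 thus led in vehicle, DUSP5 with TNFα, and DUSP1 and DUSP4 with E2, with or without TNFα.

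**Figure D4:**
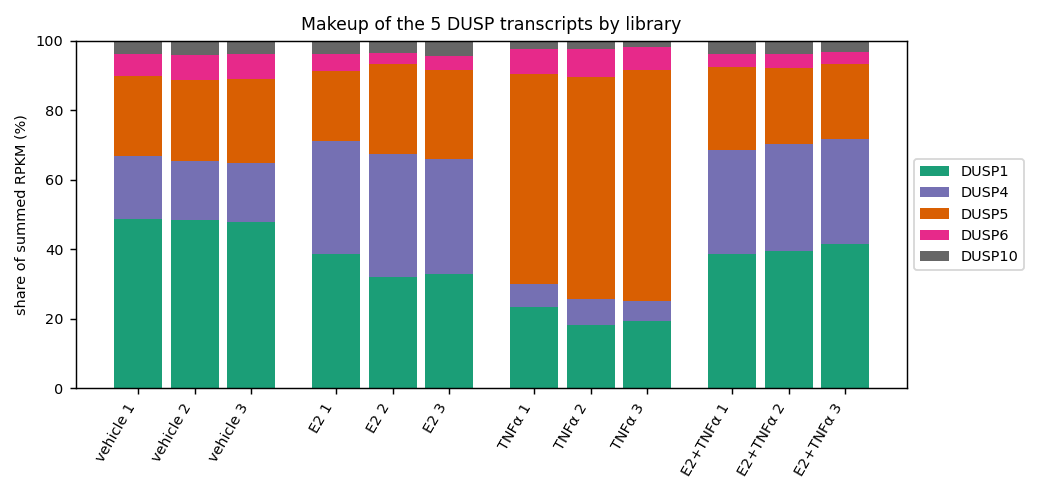
Share of the summed RPKM of the 5 DUSP genes held by each gene (vertical axis, percent) in each of the 12 libraries. DUSP5 takes between 60.2% and 66.4% in the 3 TNFα libraries and between 20.3% and 26.0% in the 9 others, and DUSP4 takes between 29.8% and 35.5% in the 6 libraries with E2.

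Per length, the order of the other members in vehicle was ETV5 (17.6 ± 1.90 RPKM), SPRY4 (10.3 ± 0.244), SPRED2 (6.89 ± 0.340), SPRED1 (5.07 ± 1.24) and SPRY2 (2.15 ± 0.297). With E2+ TNFα it was SPRY4 (33.3 ± 4.81), ETV5 (25.1 ± 3.69), SPRED2 (6.89 ± 0.273), SPRY2 (2.57 ± 0.324) and SPRED1 (2.48 ± 0.543). There SPRY4 was above ETV5 in each of the 3 libraries, while SPRY2 and SPRED1 changed order between libraries.

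Members varied together to unequal degrees over the 12 libraries, which fall into 4 treatment groups and differ in depth, and the values that follow are descriptions. The closest pair was DUSP5 and SPRED2 (Pearson r of log2 CPM 0.97), and DUSP4 ran against DUSP6 (-0.96). The genes most like DUSP6 were MBP (0.99), FST (0.99) and DKC1 (0.98), and 149 of the 11293 other genes had an r over 0.9. Those most like DUSP1 were SIK1 (0.90), PDPK1 (0.87) and TPPP (0.86), and none had an r over 0.9.

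Related genes were taken from lists and read in E2+ TNFα relative to TNFα, where 3.55% of all genes tested passed both thresholds upwards, 2.01% downwards and 45.3% that on p alone, and the median was 0.04. Of 5 other MAP kinase phosphatases, 1 was past the thresholds (DUSP9, a cytoplasmic phosphatase of ERK, lower) and 3 were past the p threshold. DUSP9 was at 3.89, 3.78 and 3.43 CPM in TNFα and 0.989, 1.57 and 1.23 in E2+ TNFα libraries, a log2 fold change of -1.53 ± 0.25 (SE, adjusted p = 0.00024) in a gene with few reads. It fell short of 1.5 in size when TNFα replicate 1, E2+ TNFα replicate 1 or 3 or all vehicle libraries were left out and when the trends were removed, where it came to -1.41 at the least. DUSP2, a nuclear phosphatase of ERK, was at -1.05 ± 0.34 (SE, adjusted p = 0.026), from 1.72 ± 0.259 to 0.798 ± 0.265 CPM. DUSP7, another cytoplasmic phosphatase of ERK that was named after its values were seen, was at 0.87 ± 0.12 (SE, adjusted p = 5.1e-05), so that the ERK phosphatases outside the 10 members also held both directions. The other Sprouty and SPRED genes tested were SPRY1, at -0.55 ± 0.19 (SE, adjusted p = 0.037), and SPRED3, at 0.53. Neither was past the size threshold in edgeR or DESeq2, and both had an unadjusted p under 0.05.

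ETV4, another PEA3 factor, was at 68.4, 61.3 and 61.7 CPM with vehicle, 89.5, 136 and 86.7 with E2, 147, 140.5 and 152 with TNFα and 83.6, 76.0 and 89.6 with E2+ TNFα. It was highest in TNFα and in E2+ TNFα relative to TNFα was at -0.82 ± 0.15 (SE, adjusted p = 0.00058). Its interaction was -1.52 ± 0.21 (SE, adjusted p = 2e-05), which was under the size threshold in 10 of 22 alternatives and -0.47 with the unwanted factor. ETV1 did not pass the filter.

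Of 8 tested genes known to respond to ERK, 1 was past the thresholds and 6 were past the p threshold (45.3% of all genes were), with a median of -0.67. CCND1 and EGR1 (0.62) were higher, and MYC, IER3 (-1.17), FOSL1 (-1.14) and PHLDA1 (-1.03) lower. In TNFα relative to vehicle, FOSL1 and MYC were induced past the thresholds (6.64% of all genes were) and EGR1 and FOS repressed (20.0%). EGR1, FOS, FOSL1, IER3 and PHLDA1 were named after their values were seen. CCND1, a cyclin that drives entry into the cell cycle, was at 292, 311 and 327 CPM in TNFα and 924, 856 and 916 in E2+ TNFα libraries, higher by 1.54 ± 0.11 (SE, adjusted p = 2.6e-08), and was under the size threshold without E2 replicate 2 or TNFα replicate 1 (lowest 1.48). MYC, a transcription factor that was named after its values were seen, was at -1.38 ± 0.14 (SE, adjusted p = 1.3e-06), and at -1.53 without E2+ TNFα replicate 3. Of the 20 genes of the cascade itself none was past the thresholds in edgeR or DESeq2, and 9 were past the p threshold, near the 45.3% of all genes and as many as had an unadjusted p under 0.05, with a median of 0.07. Its ends, also named after their values were seen, were the kinase MAP2K1, at 1.10 ± 0.12 (SE, adjusted p = 3.3e-06), and the scaffold KSR1, at -1.04 ± 0.20 (SE, adjusted p = 0.00085). Of 7 kinases of the p38 and JNK pathways none was past the thresholds in either tool and 3 were past the p threshold, again as many as had an unadjusted p under 0.05, with a median of 0.09. Relative to vehicle, 7 to 9 of the 20 cascade genes and 0 to 2 of the 7 kinases were past the thresholds, in comparisons where 25.1% to 30.5% of all genes were.

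**Figure D5:**
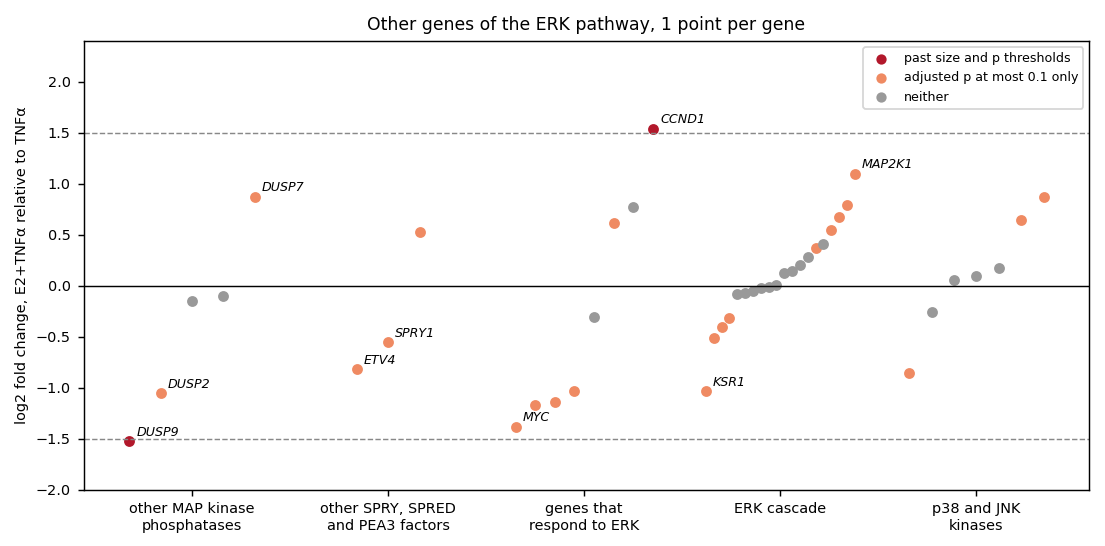
Log2 fold change in E2+ TNFα relative to TNFα (vertical axis) of genes of 5 lists around the feedback genes, 1 point per gene, ordered by value within a list; dashed lines mark the size threshold of 1.5. DUSP9 and CCND1 lie just past the lines, and the 20 genes of the ERK cascade lie between -1.04 and 1.10.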

How the data were processed

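Total RNA of 12 dishes was made into stranded mRNA libraries, and the authors counted mapped reads per gene by featureCounts (the submitters' processing notes also name TopHat2 2.1.0 and hg38). The deposited values are whole-number counts, without the batch correction (RUVseq) that the study's methods describe. The deposited summed exon length gave RPKM. Rows given again unchanged (46) or under a second symbol for one locus (70) were dropped, and 11303 genes entered the tests. These used TMM factors and edgeR 4.0.16's quasi-likelihood F test (R 4.3.3) in a single fit of 4 group means, with Benjamini-Hochberg adjustment over all genes tested. Levels are CPM or RPKM, with the SD over 3 libraries. The members and the lists were chosen with earlier results of these data known. All members were named, with DUSP2, SPRY1, ETV4 and any listed gene past the thresholds without vehicle libraries, and for DUSP6 and DUSP1 the 3 genes with the highest r.

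Alternatives were DESeq2 1.42.0 or its size factors, library size only, no filter or a minimum of 10 counts per library, the likelihood ratio test, the compared groups only, a replicate block, an unwanted factor from 20 housekeeping genes, loess trends (span 0.3) with exon GC content and length taken out per library, and each library left out. Leaving the vehicle libraries out of the fit was added after seeing the data. Copies were sought with minimap2 2.31 (at least 200 matching bases). Columns of no mapped sample were 0. Depth was 7.65 to 39.9 M reads, and SPRY2 had the fewest reads of the members (55 to 388 per library).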

Additional observations from a re-analysis of the deposited data

Results flagged for a closer look

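The effect of TNFα with and without E2 differed for DUSP5 by the interaction term of edgeR, at -2.23 on the log2 scale (adjusted p = 4e-07), with 477 ± 66.3 CPM in TNFα, 100.2 ± 4.76 in vehicle, 104 ± 13.8 in E2 and 105 ± 11.9 in E2+ TNFα libraries (SD, n = 3). All 3 TNFα libraries were above the 9 others. It also differed for SPRED1, at 1.97 (adjusted p = 2.5e-05), where genes of like GC content had a median of 2.03.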

How the results depend on the processing

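Over 1626 alternative values of 70 log2 fold changes, 1492 had the same direction and side of the thresholds, 91 changed sign, 42 lost a call (4 of them with a change of sign) and 5 gained one. In E2+ TNFα relative to TNFα, DUSP5 (-2.29 to -2.07) and DUSP6 (-1.68 to -1.54) were past the thresholds in all 24 alternatives, and the call of DUSP4 was lost in 11 of 24, as given above.

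At the p threshold alone, the members counted were 6 for E2, 9 for TNFα and 5 for E2+ TNFα relative to vehicle, 8 relative to TNFα, 1 relative to E2 and 8 for the interaction. From here on, the count is that of members past both the size and p thresholds. With all libraries it was 0 for E2 and 2 for TNFα relative to vehicle, and without single libraries 0 to 1 and 1 to 2.

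With library size only, the median of all genes moved by -0.38 for E2, -0.19 for TNFα and -0.26 for E2+ TNFα relative to vehicle, by 0.13 relative to E2 and by 0.31 in the interaction. The count was then 1 for E2 and 0 for E2+ TNFα relative to vehicle. Values changed sign to -0.31 for DUSP5, -0.32 for DUSP10, -0.043 for SPRY2 and -0.27 for SPRED2 in E2, to -0.18 for DUSP10 in TNFα, to -0.17 for DUSP5, -0.23 for DUSP10 and -0.23 for SPRED2 in E2+ TNFα, to 0.082 for DUSP4, 0.094 for DUSP10, 0.059 for SPRY2 and 0.038 for SPRED2 relative to E2, and to 0.27 for DUSP10 and 0.26 for SPRY4 in the interaction.

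With the unwanted factor the count was 1 for TNFα, 0 for E2+ TNFα and 1 for the interaction, and values changed sign to -0.63 (DUSP5) and -0.23 (SPRED2) in E2, -0.49 (DUSP5) and -0.26 (SPRED2) in E2+ TNFα, 0.027 (DUSP4) and -0.042 (DUSP6) relative to E2, and 0.43 (SPRY4) in the interaction. With at least 10 counts in every library they changed to -0.019 (DUSP5) and -0.033 (DUSP10) in E2, -0.034 (DUSP10) in TNFα, -0.045 (DUSP10) and -0.051 (SPRED2) in E2+ TNFα, and 0.023 (DUSP10) and 0.012 (SPRY4) in the interaction. DUSP10 changed to 0.026 relative to TNFα and 0.016 relative to E2 with the vehicle libraries left out of the fit (added after seeing the data), and to 0.0051 relative to E2 in a fit of the compared groups only.

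With GC content and length trends removed, and with the replicate block as well, the count was 1 for TNFα, 0 for E2+ TNFα and 1 for the interaction. SPRED1 changed sign to 0.85 (0.87 with the replicate block) in E2, 0.34 (0.35) in TNFα, 0.74 (0.74) in E2+ TNFα, -0.11 (-0.12) relative to E2 and -0.45 (-0.47) in the interaction. DUSP5 changed to -0.77 (-0.78) in E2 and -0.61 (-0.60) in E2+ TNFα, SPRED2 to -0.095 (-0.095) in E2+ TNFα and SPRY4 to 0.077 (0.082) in the interaction. The replicate block alone changed no call of a member. Same-numbered libraries of different groups correlated at -0.45 to 0.43 in their deviations from the group means, over 0.1 in 4 of 18 pairs. Libraries with different numbers correlated at -0.51 to 0.61, over 0.1 in 16 of 36 pairs. Deviations from a mean of 3 libraries depend on each other, so these values cannot tell whether same-numbered dishes were handled together. The labels give a replicate number and no pairing.

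Across fits without single libraries, values that changed sign ranged from -0.064 to 0.10 (DUSP5), -0.11 to 0.15 (DUSP10) and -0.035 to 0.14 (SPRED2) in E2, from -0.070 to 0.11 (DUSP10) in TNFα, and from -0.0030 to 0.16 (DUSP5), -0.062 to 0.042 (DUSP10) and -0.060 to 0.031 (SPRED2) in E2+ TNFα. They ranged from -0.076 to 0.078 (DUSP10) relative to TNFα, and relative to E2 from -0.12 to 0.020 (DUSP4), -0.085 to 0.11 (DUSP5), -0.11 to 0.22 (DUSP6), -0.12 to 0.068 (DUSP10) and -0.18 to 0.072 (SPRY2). In the interaction they ranged from -0.23 to 0.068 (DUSP10) and -0.19 to 0.049 (SPRY4). The cause of these changes was not tested. SPRY2 had the fewest reads of the members, and DUSP2 and DUSP9 had fewer still, which limits what their values can show.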
